A study of Mus musculus with 12 samples.

Results

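The 10 genes of paired myeloid receptors followed here were measured in mouse skin after injection of oligonucleotides that mimic miR-29 or block it. They were chosen by name with earlier results of these data known, and the arrays measured them with 15 probes of 39429. All 15 probes passed the filter on dim signal that left 27175 probes of 20492 genes. Cd300lf, Sirpb1b and Clec4d had been picked because their signal was higher with the inhibitor, so their values in intact skin are given as a description without a test. The other 7 genes were tested in every comparison.

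The 12 skin samples came from male C57BL/6 mice of about 8 weeks and formed 4 groups of 3, which the labels call biological replicates. In 2 groups the skin had a sutured 1 cm incision and received an intradermal injection 72 h after wounding, either 100 nmol of a miR-29b mimic, named promiR-29 in the labels, or PBS. The other 2 groups were intact skin injected with 100 nmol of antimiR-29, an oligonucleotide inhibitor of miR-29, or with PBS. Whole skin pieces of 20 to 100 mg were taken 24 h after injection, and each was hybridised in Cy5 against a universal mouse reference RNA in Cy3, so every group shares both the injection itself and the reference. No uninjected skin and no control oligonucleotide was among the samples analysed here.

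Paired receptors are families of closely related membrane proteins on macrophages, monocytes, neutrophils and dendritic cells, in which some members activate the cell and others restrain it. Activating members have short tails and signal through partner chains such as DAP12 and the Fc receptor gamma chain, which carry activation motifs that recruit the kinase SYK. Inhibitory members carry tyrosine motifs in their own tails that recruit the phosphatases SHP-1 and SHP-2. In skin these receptors sense microbes, damaged cells and lipids of dying cells.

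The injected agents concern a family of mature miRNAs with the same seed, shown here (RefSeq, GRCm38.p6) with that seed, bases 2 to 8, in capitals. The sequences of the injected oligonucleotides are not given in the sources used here.
miR-29a-3p: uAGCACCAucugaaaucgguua
miR-29b-3p: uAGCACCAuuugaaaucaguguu
miR-29c-3p: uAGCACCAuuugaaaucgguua

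Signal over background was similar across arrays. On each array 65.66 to 73.88% of probes had Cy5 well above background. Every receptor probe passed that mark on all 12 arrays, and 0 were saturated. All 8 skin markers checked, keratins and collagens among them, were also above background on every array. Intact PBS array 3 was the least like its own group (median correlation across genes 0.921, against 0.939 or more for the others), and results that change without it are named. Values below are log2 ratios of skin over reference RNA for a gene's brightest probe. They compare groups for 1 probe and do not rank genes against each other. Fold changes carry the standard error of the fit, and adjusted p values are limma's over all genes. In whole skin, more cells of a type and more RNA per cell cannot be told apart.

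**Figure D1:**
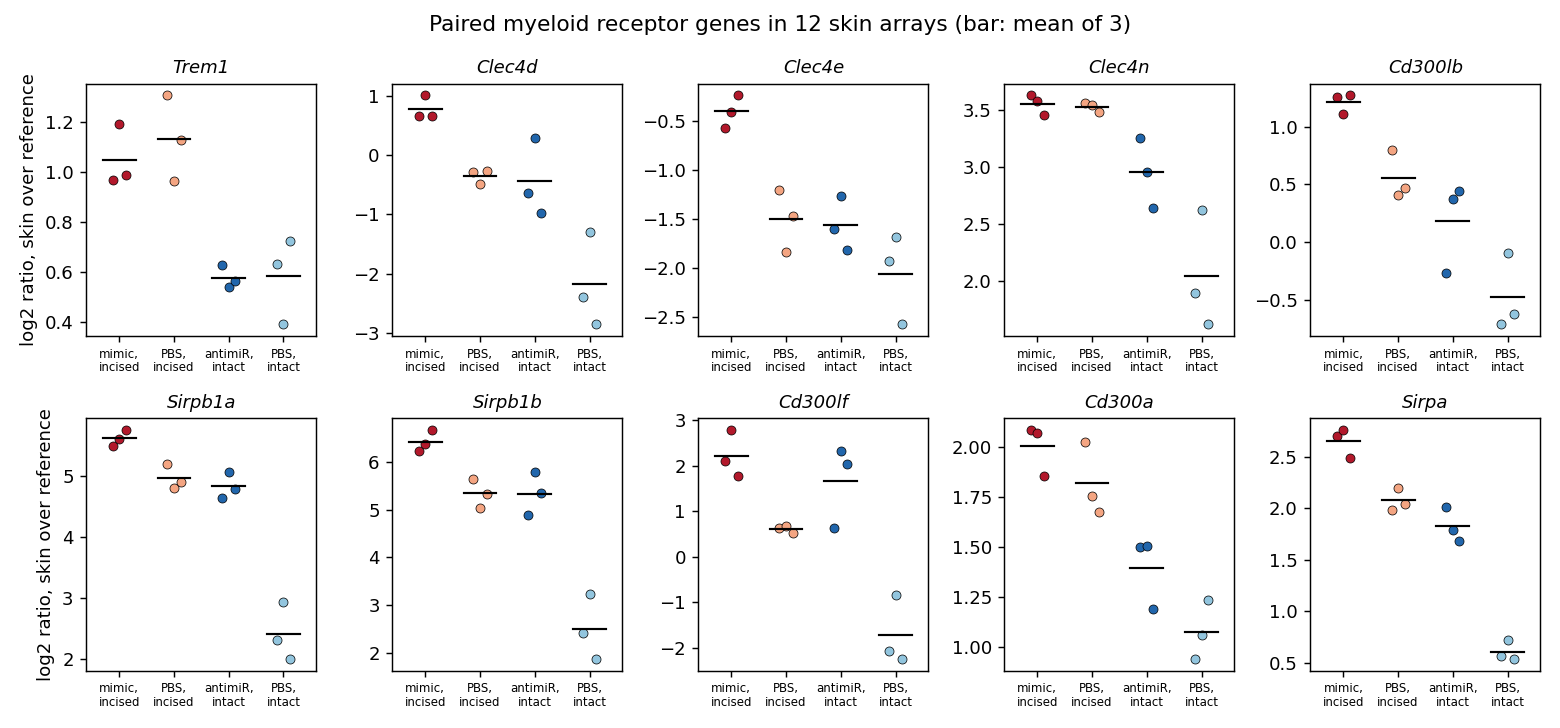
Each point is 1 array and each bar the mean of 3 arrays, with the log2 ratio of skin over reference RNA on the vertical axis (scales differ between genes). Mimic-treated incisions had the highest mean for 9 of 10 genes, and intact PBS skin had the lowest mean for 9 of 10. Without the 3 genes picked for their rise above intact PBS skin, each of these places was held for 6 of 7. Without Sirpb1a, the copy of a picked gene, each was held for 5 of 6. The share of all genes with these orders is not given here.

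Trem1 encodes an activating receptor of neutrophils and monocytes that signals through DAP12 and amplifies inflammation. Its log2 ratios were 0.97, 1.19 and 0.99 in mimic-treated incisions, against 1.31, 0.96 and 1.13 in PBS-treated incisions. Intact skin gave 0.63, 0.54 and 0.56 with antimiR, against 0.63, 0.39 and 0.73 with PBS. The incised arrays thus all lay above the intact ones, while the arrays with and without oligonucleotide overlapped in both kinds of skin. The change was -0.09 ± 0.11 with mimic (adjusted p = 0.837) and -0.01 ± 0.11 with antimiR (adjusted p = 0.984), and Trem1 rose by 0.55 ± 0.11 with incision (1.46-fold, adjusted p = 0.0104). The incision call was lost with Cy5 alone (adjusted p = 0.0686) and with only the compared groups in the fit (adjusted p = 0.0593).

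The Trem1 probe (mm9, chr17:48385849-48385908, plus strand) contains a run of 39 bases of a 3-base repeat and shares stretches of 27 to 33 bases with probes named for 4 other genes, and how much of its signal comes from other transcripts was not tested. A probe of Cd300a and a probe of Cd300lf also hold repeat runs, of 17 and 18 bases. These repeats are shown so that the letters can be read beside the probes' values. Stretches of 30 bases are printed with the bases of a repeat in capitals, and the Trem1 stretch lies wholly within its longer run.
Trem1 probe, bases 25 to 54: TGTTGTTGTTGTTGTTGTTGTTGTTGTTGT
Cd300a probe, bases 31 to 60: gtgtgtatgtgtaTATGTATGTATGTATGT
Cd300lf probe 3, bases 31 to 60: tttaaggaggaAGAGAGAGAGAGAGAGAGt
The 3 repeat-bearing probes had log2 fold changes of -0.09 to 0.33 with mimic, -0.01 to 0.79 with antimiR and 0.55 to 0.74 with incision. The other 12 probes spanned 0.02 to 1.62, 0.50 to 3.39 and 0.56 to 2.84 in the same comparisons. The part of the repeats in these differences was not tested.

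The genes of 3 C-type lectin receptors lie next to each other on chromosome 6, with all their probes inside 36 kb (mm9, chr6:123196969-123232937). Clec4d encodes MCL and Clec4e encodes Mincle, which form a complex with the Fc receptor gamma chain and bind the mycobacterial glycolipid cord factor, and Clec4n encodes Dectin-2, which binds fungal mannans and uses the same chain. Clec4d and Clec4e were higher on every mimic array than on every PBS array of incised skin, whereas the Clec4n arrays of these groups overlapped.

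Clec4d had log2 ratios of 0.66, 1.01 and 0.65 in mimic-treated incisions, against -0.28, -0.48 and -0.28 in PBS-treated incisions. The groups did not overlap, and the fold change of 1.12 ± 0.38 (2.17-fold) ranked 35 of 20484 genes by size of rise but missed the threshold (adjusted p = 0.238). Intact skin gave -0.64, 0.29 and -0.97 with antimiR, against -2.38, -1.29 and -2.85 with PBS. All antimiR arrays lay above all PBS arrays there and spread around the level of incised PBS skin. The differences, for which Clec4d was picked or which use the same PBS arrays, were 1.73 with antimiR (3.32-fold) and 1.83 with incision (3.55-fold).

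Clec4e had log2 ratios of -0.57, -0.41 and -0.24 in mimic-treated incisions, against -1.21, -1.83 and -1.47 in PBS-treated incisions. Every mimic array was above every PBS array, by 1.10 ± 0.23 in the mean (2.14-fold, adjusted p = 0.0708). Intact skin gave -1.60, -1.27 and -1.82 with antimiR, against -1.93, -1.69 and -2.57 with PBS. These groups overlapped, and so did the incised and intact PBS arrays. Neither the antimiR change of 0.50 ± 0.23 (adjusted p = 0.22) nor the incision change of 0.56 ± 0.23 (adjusted p = 0.127) passed the threshold. The antimiR value was 1.01 with slide as a fixed block (adjusted p = 0.0418) and -0.11 with Cy5 alone.

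Clec4n had log2 ratios of 3.63, 3.58 and 3.46 in mimic-treated incisions, against 3.56, 3.55 and 3.48 in PBS-treated incisions. These 6 arrays lay within a narrow band, and the change was 0.02 ± 0.22 (adjusted p = 0.983). Intact skin gave 3.25, 2.96 and 2.64 with antimiR, against 1.90, 2.62 and 1.62 with PBS. The antimiR arrays lay between the intact PBS arrays and the incised ones without touching either group. Clec4n rose by 0.91 ± 0.22 with antimiR (1.87-fold, adjusted p = 0.0285) and by 1.49 ± 0.22 with incision (2.80-fold, adjusted p = 0.00247). The antimiR value was 0.36 with the scanner's processed signals (adjusted p = 0.319), and the call was also lost with only the compared groups in the fit (adjusted p = 0.158) and without intact PBS array 1 or 3 or antimiR array 1 or 2 (adjusted p = 0.0625 to 0.0901). With processed signals the incision value was 0.75 (adjusted p = 0.0379).

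Cd300lb encodes an activating receptor of the CD300 family that pairs with DAP12. Its log2 ratios were 1.25, 1.11 and 1.27 in mimic-treated incisions, against 0.80, 0.40 and 0.47 in PBS-treated incisions. The mimic arrays were all higher, by 0.65 ± 0.21 (1.57-fold, adjusted p = 0.204). Intact skin gave -0.27, 0.38 and 0.44 with antimiR, against -0.71, -0.10 and -0.62 with PBS. AntimiR array 1 fell below intact PBS array 2, so these groups overlapped. The antimiR change of 0.66 ± 0.21 was not called (adjusted p = 0.0714), and it was called without intact PBS array 2 (0.85, adjusted p = 0.0299) or without antimiR array 1 (0.89, adjusted p = 0.0178). Cd300lb rose by 1.04 ± 0.21 with incision (2.05-fold, adjusted p = 0.009).

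Sirpb1a and Sirpb1b encode activating partners of SIRPA that signal through DAP12. They lie on chromosome 3 and are near-identical copies. The transcripts listed for 3 of their 5 probes belong to Sirpb1a, Sirpb1b and Sirpb1c together, and those of a further probe to Sirpb1b and Sirpb1c, so the signal of these copies cannot be told apart. A test of Sirpb1a is therefore not independent of the choice of Sirpb1b. The 3 probes whose listed transcripts span all the copies are printed in the sense direction. Capitals mark a stop codon within the last 15 bases that closes a frame open up to it. In Sirpb1a probe 2, 1 other frame holds no stop codon over all 60 bases, against 0 frames in Sirpb1a probe 1. Whether the marked codons end the protein was not tested.
Sirpb1a probe 1 (mm9, chr3:15378994-15379053, minus strand): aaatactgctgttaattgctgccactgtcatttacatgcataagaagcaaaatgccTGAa
Sirpb1a probe 2 (mm9, chr3:15410412-15410471, minus strand): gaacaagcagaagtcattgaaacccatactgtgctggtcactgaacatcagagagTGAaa
Sirpb1b probe 2 (mm9, chr3:15542342-15542401, minus strand): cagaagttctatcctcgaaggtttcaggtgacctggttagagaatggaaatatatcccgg

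Sirpb1a had log2 ratios of 5.49, 5.61 and 5.76 in mimic-treated incisions, against 5.20, 4.81 and 4.91 in PBS-treated incisions. All mimic arrays were higher, by 0.65 ± 0.21 (1.56-fold, adjusted p = 0.221). That value was 0.23 with the scanner's processed signals, 0.33 in the deposited table and 1.03 with Cy5 alone. Intact skin gave 4.64, 5.07 and 4.79 with antimiR, against 2.31, 2.94 and 2.00 with PBS. Every antimiR array stood far above every intact PBS array and overlapped the incised PBS arrays. Sirpb1a rose by 2.42 ± 0.21 with antimiR (5.34-fold, adjusted p = 0.000183) and by 2.56 ± 0.21 with incision (5.88-fold, adjusted p = 0.000253). Both calls held with the scanner's processed signals, where the values were 1.25 and 1.36. Its probes 2 and 3 gave 2.18 and 1.97 with antimiR, and 2.62 and 2.25 with incision. Probe 3 has no listed RefSeq transcript, and its position (mm9, chr3:15731274-15731333, minus strand) lies beyond all other probes of Sirpb1a and Sirpb1b. How much of its signal comes from Sirpb1a was not tested. In intact PBS skin the reference RNA was well above background in Cy3 on 1 of 3 arrays for probe 1, 0 of 3 for probe 2 and 1 of 3 for probe 3, so the folds against that group rest on a dim denominator.

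Sirpb1b had log2 ratios of 6.23, 6.37 and 6.67 in mimic-treated incisions, against 5.65, 5.04 and 5.33 in PBS-treated incisions. The groups did not overlap, and the change was 1.08 ± 0.32 (2.12-fold, adjusted p = 0.173). It was 0.12 with the processed signals. Intact skin gave 4.88, 5.79 and 5.34 with antimiR, against 2.42, 3.23 and 1.87 with PBS. The antimiR arrays were again all higher than the intact PBS arrays, and they overlapped the incised PBS ones. The descriptive differences were 2.83 with antimiR (7.13-fold) and 2.84 with incision (7.15-fold) for the brightest probe, and 1.97 and 2.16 for the second. On the brightest probe the reference RNA was well above background in Cy3 on 0 of 12 arrays, so the height of its ratio rests on a dim denominator. On the second probe the reference RNA passed that mark on 7 of 12 arrays and on 0 of 3 intact PBS arrays. The second probe's differences from intact PBS skin thus rest on a dim denominator too.

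Cd300lf encodes an inhibitory receptor that binds phosphatidylserine on dying cells and restrains macrophages and dendritic cells. Its log2 ratios were 2.09, 2.79 and 1.78 in mimic-treated incisions, against 0.62, 0.67 and 0.52 in PBS-treated incisions. All mimic arrays stood clear of the PBS arrays, and the change of 1.62 ± 0.46 (3.07-fold) ranked 7 of 20484 genes by size of rise, with an adjusted p of 0.153. Intact skin gave 0.64, 2.33 and 2.03 with antimiR, against -2.07, -0.84 and -2.25 with PBS. AntimiR array 1 was well below the other antimiR arrays and level with incised PBS skin, yet above every intact PBS array. The descriptive differences were 3.39 with antimiR (10.5-fold) and 2.32 with incision (5.00-fold). Of the 10 genes, only Cd300lf had a higher mean in antimiR-treated intact skin (1.67) than in PBS-treated incisions (0.60), although those arrays overlapped.

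The 3 Cd300lf probes gave values of different size. Probes 1 and 2 share 53 of their 60 bases (mm9, chr11:114977540-114977599 and chr11:114977533-114977592, minus strand) and so are not separate evidence. Their differences were 3.39 and 3.11 with antimiR and 1.62 and 1.46 with mimic. Probe 3, which starts 256 bases away and carries the AG repeat shown above, gave 0.79 with antimiR, 0.33 ± 0.23 with mimic and 0.63 with incision. With the mean over probes in place of the brightest, the antimiR difference was 2.43 and the mimic change 1.13 (adjusted p = 0.209).

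Cd300a encodes an inhibitory receptor that also binds phospholipids exposed on dying cells. Its log2 ratios were 2.09, 2.07 and 1.86 in mimic-treated incisions, against 2.03, 1.76 and 1.68 in PBS-treated incisions. Those groups overlapped, with a change of 0.18 ± 0.13 (adjusted p = 0.625). Intact skin gave 1.50, 1.50 and 1.19 with antimiR, against 0.94, 1.06 and 1.23 with PBS. Intact PBS array 3 lay above antimiR array 3, and the antimiR change of 0.32 ± 0.13 was not called (adjusted p = 0.151). Cd300a rose by 0.74 ± 0.13 with incision (1.67-fold, adjusted p = 0.00478). Its probe lies within 212.3 kb of those of Cd300lb and Cd300lf on chromosome 11 (mm9), and it is the probe with the 4-base repeat printed above.

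Sirpa encodes the inhibitory receptor for CD47, whose contact restrains engulfment by macrophages. Its log2 ratios were 2.70, 2.76 and 2.49 in mimic-treated incisions, against 1.99, 2.20 and 2.05 in PBS-treated incisions. The mimic arrays were all higher, by 0.57 ± 0.11 (1.49-fold), with an adjusted p of 0.0507. Intact skin gave 2.01, 1.79 and 1.68 with antimiR, against 0.57, 0.72 and 0.53 with PBS. The 3 intact PBS arrays were close together and far below all others. Sirpa rose by 1.22 ± 0.11 with antimiR (2.33-fold, adjusted p = 0.000194) and by 1.47 ± 0.11 with incision (2.77-fold, adjusted p = 0.000189). Its mimic change had the smallest p of the 10 genes and was called at 0.66 with scaling between arrays (adjusted p = 0.0337).

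**Figure D2:**
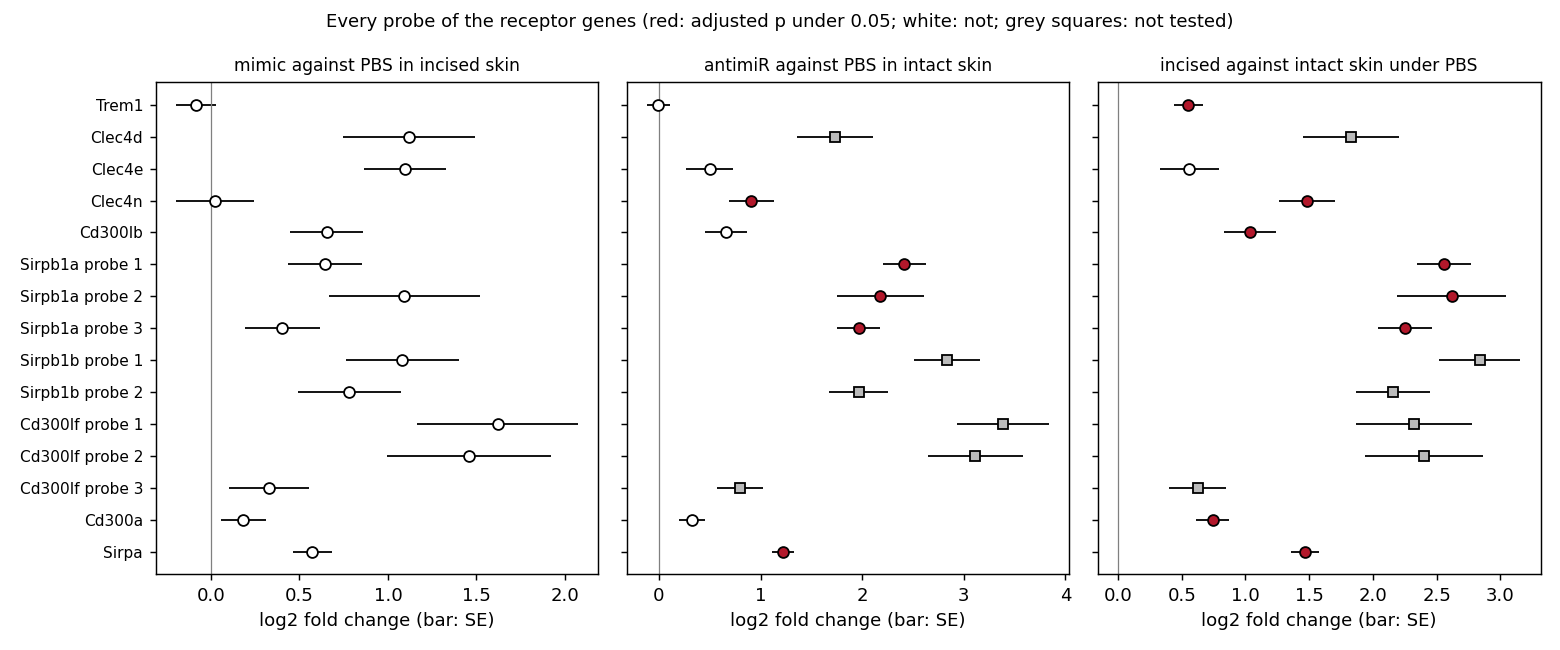
Points give the log2 fold change of each of the 15 probes in 3 comparisons, bars 1 standard error, with red for an adjusted p under 0.05, white for tested but not called and grey squares for the picked genes, which were not tested in intact skin. With mimic 0 of 15 probes were called (0.523% of all kept probes), with antimiR 5 of 9 (11.4%) and with incision 8 of 9 (15.4%). Of the 9 probes 3 are those of Sirpb1a, the copy of a picked gene, and without them 2 of 6 were called with antimiR and 5 of 6 with incision.

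Across the family, the mimic moved 0 of 10 genes past the threshold, where 0.591% of all genes were called. At an unadjusted p under 0.05 there were 7 of 10, against 12.5% of all genes. All 3 mimic arrays lay above all 3 PBS arrays for 7 of 10 genes, against 12.5% of all genes, and 9 of 10 changes were positive with a median of 0.65, against a median of -0.0011 over all genes. Sirpb1a and Sirpb1b, whose signals cannot be told apart, are both among those 7. Of the genes not picked, 4 of 7 lay above without overlap, and 3 of 6 without Sirpb1a. The mimic comparison shares no array with the one that picked the 3 genes, but all 10 were chosen with earlier results of these data known. With only the 2 incised groups in the fit, 6 genes were called (Clec4d, Clec4e, Cd300lb, Sirpb1b, Cd300lf and Sirpa, adjusted p = 0.0188 to 0.0444), and the share of all genes called in that fit was 2.14%. In the fit of all groups, Clec4e and Sirpa were called without intact PBS array 2 or 3, and Sirpa without antimiR array 1. Slide 1 alone, with mimic array 1 and the 3 PBS arrays, gave differences of -0.17 to 1.49.

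With antimiR, 3 of the 7 tested genes rose (Sirpb1a, Sirpa and Clec4n), where 9.69% of all genes were called and 5.23% were called higher. All antimiR arrays lay above all intact PBS arrays for 3 of the 7, against 14.1% of all genes. Without Sirpb1a, whose signal cannot be told apart from that of the picked Sirpb1b, both counts were 2 of 6. The remaining tested genes, Trem1, Clec4e, Cd300lb and Cd300a, had changes of -0.01 to 0.66. Without intact PBS array 3 there were 2 calls. Slide 3 alone, with the 3 antimiR arrays and that PBS array, gave differences of -0.15 to 2.83 for the tested genes.

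Incision under PBS raised 6 of the 7 tested genes, where 15.4% of all genes were called and 9.86% were called higher. Clec4e was the exception. The 6 were also above without overlap, against 19.8% of all genes. Without Sirpb1a both counts were 5 of 6. No slide held arrays of both PBS groups. With slide as a fixed block 0 of 7 were called, with values of 0.70 to 2.54 for the 6 genes. The antimiR and incision comparisons use the same 3 intact PBS arrays, so their values stand side by side here and are not evidence for each other.

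Among partners of these receptors, a list of 14 adaptors and kinases was read in the same fit. With mimic 0 of 14 were called (0.591% of all genes), although all 14 changes were positive with a median of 0.37. Tyrobp, which encodes DAP12, was 0.63 ± 0.23 higher (adjusted p = 0.292), and Plcg2, a phospholipase downstream of SYK, was 0.52 ± 0.19 higher (adjusted p = 0.267). With antimiR 3 of 14 rose, where 9.69% of all genes were called. These were Vav1, an exchange factor, by 1.31 ± 0.19, Fcer1g, the Fc receptor gamma chain, by 1.42 ± 0.25, and Lcp2, the adaptor SLP-76, by 0.71 ± 0.15 (adjusted p = 0.00243 to 0.0149). Tyrobp was 0.73 ± 0.23 higher without a call (adjusted p = 0.0762). With incision 9 of 14 rose, where 15.4% of all genes were called, among them Vav1 by 1.92 ± 0.19, the adaptor gene Hcst by 0.99 ± 0.13, Lcp2 by 0.97 ± 0.15 and the kinase gene Btk by 1.06 ± 0.18.

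Of the 3 phosphatase genes, 0 were called with mimic (0.591% of all genes), and 2 rose with antimiR (9.69%) and with incision (15.4%). Ptpn6, which encodes SHP-1, rose by 1.24 ± 0.22 with antimiR (adjusted p = 0.0066) and by 1.10 ± 0.22 with incision (adjusted p = 0.00992). Inpp5d, which encodes SHIP-1, rose by 0.68 ± 0.17 with antimiR (adjusted p = 0.0279) and by 1.33 ± 0.17 with incision (adjusted p = 0.00108). Ptpn11, which encodes SHP-2, was not called in any of the 3 comparisons.

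Of 8 ligand genes 7 were measured. Pglyrp1, a peptidoglycan recognition protein reported to bind TREM-1, rose with mimic by 0.85 ± 0.12 (adjusted p = 0.0196) and with antimiR by 0.47 ± 0.12 (adjusted p = 0.0351). It was the only ligand called in either, where 0.591% and 9.69% of all genes were called. Cd47, the partner of SIRPA, was 0.25 ± 0.10 higher with mimic without a call (adjusted p = 0.321) and rose by 0.40 ± 0.10 with incision (adjusted p = 0.0189). Actb, an actin gene listed here for TREM-1 binding, was the other gene of this list called with incision. It rose by 0.75 ± 0.13 (adjusted p = 0.00497), where 15.4% of all genes were called.

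**Figure D3:**
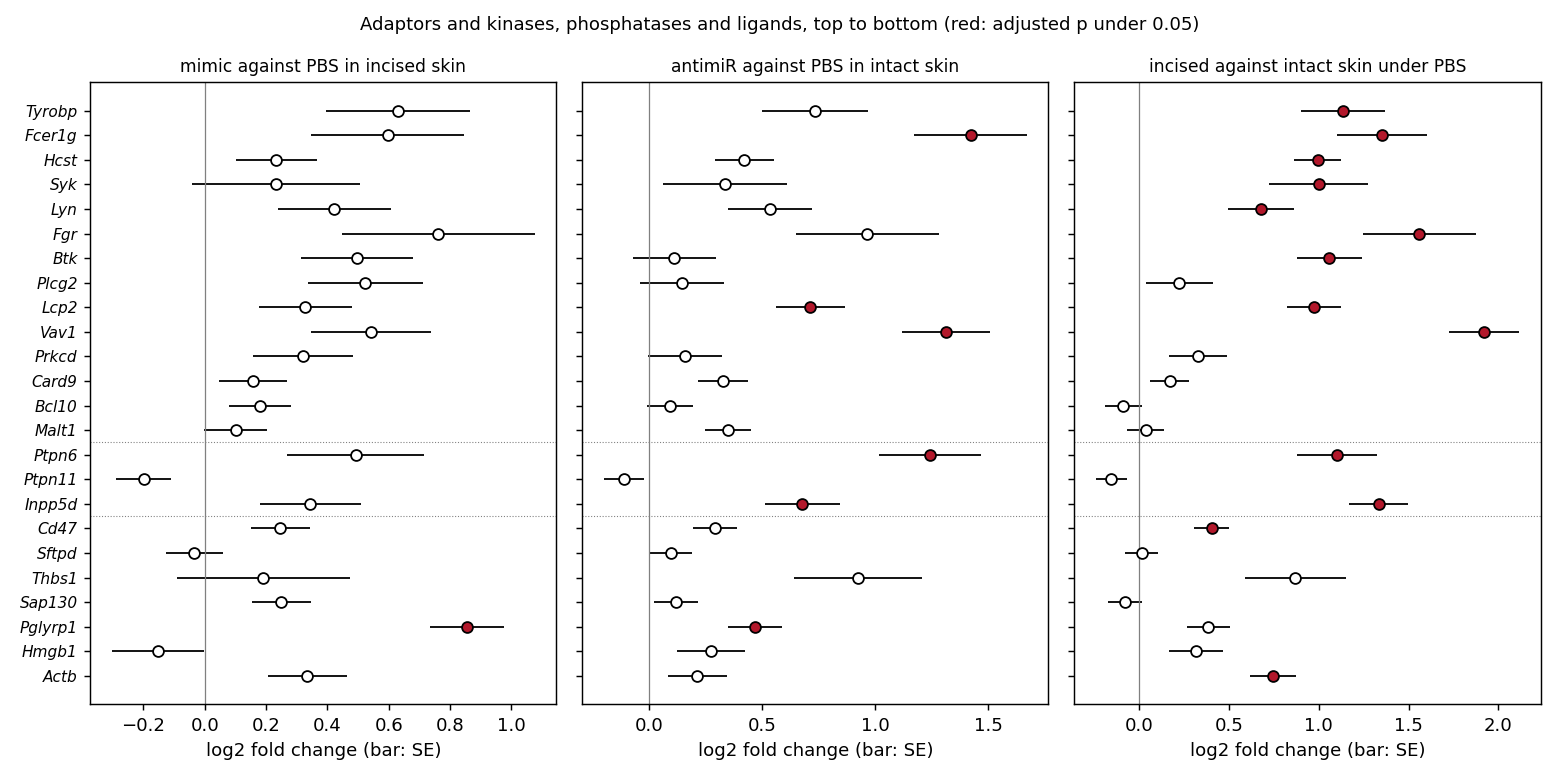
Log2 fold changes of 14 adaptors and kinases, 3 phosphatases and 7 ligands in 3 comparisons, with bars of 1 standard error and red for an adjusted p under 0.05. With antimiR 6 of these 24 genes were called (9.69% of all genes), with mimic 1 (Pglyrp1; 0.591% of all genes).

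Other receptors of the same families were read from a list of 25, of which 21 were measured. The shares of all genes called were 0.591% with mimic, 9.69% with antimiR and 15.4% with incision. With mimic 1 rose, Trem3, by 0.83 ± 0.15 (adjusted p = 0.0415), and Pilrb2 and Pilrb1, activating receptors of the PILR pair, were 0.76 ± 0.15 and 0.70 ± 0.15 higher without a call (adjusted p = 0.0507 and 0.0734). With antimiR 6 rose and 1 fell. Trem2, a lipid-sensing receptor of macrophages, rose by 1.47 ± 0.17, Clec7a, which encodes the beta-glucan receptor Dectin-1, by 1.59 ± 0.19, and the inhibitory receptor gene Lilrb4 (Lilrb4a) by 1.70 ± 0.28 (adjusted p = 0.000599 to 0.00388). Treml4 fell by 0.77 on the log2 scale (SE 0.10, adjusted p = 0.00104). With incision 9 rose, Trem2 by 2.79 ± 0.17 and Clec7a by 1.60 ± 0.19 among them.

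Markers of the cells that carry these receptors moved with them in part. A macrophage and monocyte list had 11 of 12 genes measured. Its score, the median of centred log2 ratios, ranged from 0.52 to 0.64 in mimic-treated incisions, against 0.16 to 0.41 in PBS-treated incisions, and from -0.67 to 0.11 with antimiR, against -0.73 to -0.22 in intact PBS skin. With mimic 0 of the 11 were called, while 5 lay above PBS without overlap (12.5% of all genes). Among those were Cd68, 0.86 ± 0.19 higher (adjusted p = 0.0796), Ccr2, 0.99 ± 0.33 higher (adjusted p = 0.238), and Fcgr1, 0.77 ± 0.30 higher (adjusted p = 0.318). Adgre1 and Csf1r, which define macrophages, overlapped and had values of 0.12 ± 0.46 and -0.04 ± 0.18. With antimiR 4 of 11 rose (9.69% of all genes called), namely Fcgr1 by 2.49 ± 0.30, Cd68 by 1.26 ± 0.19, Ccr2 by 1.47 ± 0.33 and Ms4a7 by 1.37 ± 0.36. Another 4 of the 11 had negative values with antimiR without a call, namely Cd163 (-0.83 ± 0.26, adjusted p = 0.071), Mrc1 (-0.62 ± 0.32), Csf1r (-0.23 ± 0.18) and Lyz2 (-0.15 ± 0.23). With incision 6 of 11 rose (15.4% of all genes called).

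A neutrophil list had 10 of 12 genes measured, with Ltf and Ngp below the filter. Its score ranged from 0.44 to 0.71 in mimic-treated incisions, against 0.06 to 0.33 in PBS-treated incisions, and from -0.55 to 0.16 with antimiR, against -0.70 to -0.51 in intact PBS skin. Mmp8, which encodes a neutrophil collagenase, rose by 2.15 ± 0.38 with mimic (adjusted p = 0.0372) and by 1.87 ± 0.38 with antimiR (adjusted p = 0.0127), and with antimiR S100a9 also rose, by 0.87 ± 0.24. The Mmp8 probe had Cy5 well above background on 10 of 12 arrays. With mimic, Cxcr2, a chemokine receptor of neutrophils, and Camp, which encodes cathelicidin, also lay above PBS without overlap, by 1.34 ± 0.27 (adjusted p = 0.0598) and 0.34 ± 0.23 (adjusted p = 0.603). Ly6g overlapped, with a value of -0.01 ± 0.36. Stfa2l1 (-0.31 ± 0.73), S100a9 (-0.12 ± 0.24) and S100a8 (-0.09 ± 0.66) were also negative with mimic, so 6 of 10 values were positive. With antimiR 9 of 10 were positive, and S100a8 was the exception (-0.37 ± 0.66). With incision 3 of 10 rose. The shares of all genes called were again 0.591% with mimic, 9.69% with antimiR and 15.4% with incision, here and for the lists that follow. Of the dendritic and Langerhans cell genes 7 of 8 were measured, and 0 were called with mimic, 2 with antimiR and 3 with incision. Mast cell markers gave 0, 0 and 1 calls of 6 in the same order, general leukocyte markers 0, 0 and 2 of 4, skin markers 0, 0 and 1 of 8 and adipocyte markers 0, 0 and 0 of 6. With mimic 4 of the 8 skin markers lay below PBS without overlap and 1 above (11.7% and 12.5% of all genes). With antimiR 0 lay below and 2 above (11.7% and 14.1%). Of the 6 adipocyte values 0 were positive with mimic or with antimiR, with medians of -0.31 and -0.50. Of 6 skeletal muscle markers 1 fell with mimic (Pvalb, by 0.65 on the log2 scale), 1 fell with antimiR (Acta1, by 0.58) and 2 rose with incision. All 6 lay below PBS without overlap with mimic and with antimiR, against 11.7% of all genes in each comparison, with medians of -0.48 and -0.40. The muscle score ranged from -0.34 to -0.07 in mimic-treated incisions, against 0.20 to 0.30 in PBS-treated incisions, and from -0.31 to -0.05 with antimiR, against 0.12 to 0.20 in intact PBS skin. The part of cell numbers and of tissue makeup in the receptor values was not tested.

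**Figure D4:**
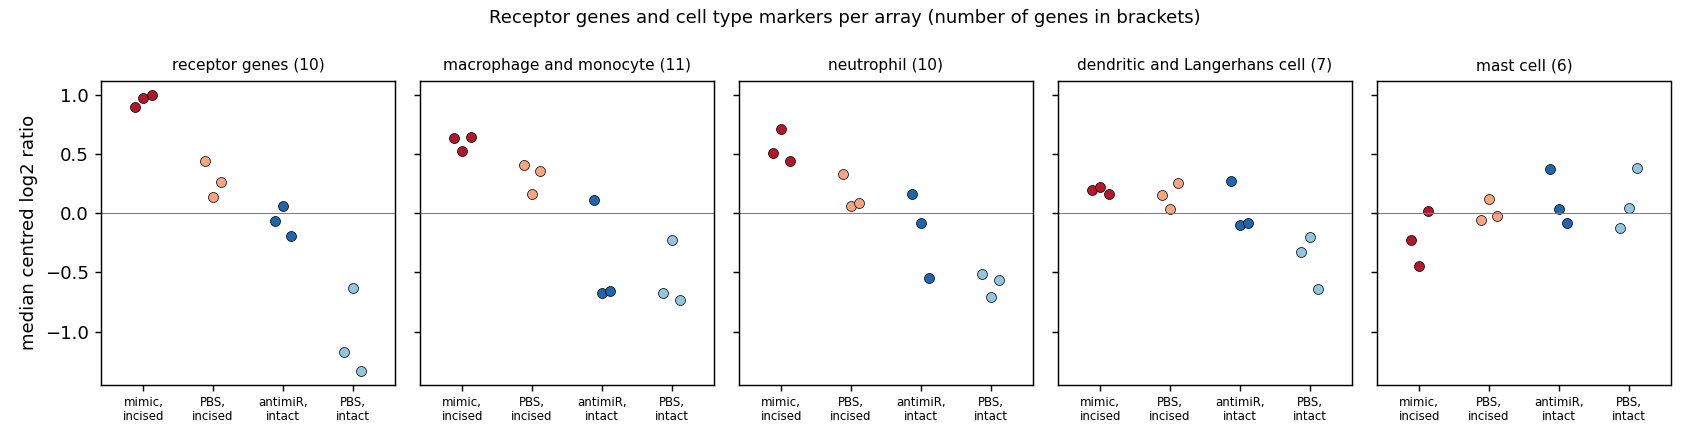
Each point is the median over a list of log2 ratios centred on the 12 arrays, for the 10 receptor genes and 4 marker lists. The receptor score was 0.90 to 1.00 in mimic-treated incisions, above 0.14 to 0.44 in PBS-treated incisions, and -0.19 to 0.06 with antimiR, above -1.33 to -0.63 in intact PBS skin. The 10 genes include those picked for that rise in intact skin. Over the 6 genes left without them and without Sirpb1a, the score was -0.33 to -0.03 with antimiR and -1.09 to -0.46 in intact PBS skin.

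Intact PBS array 2 had the highest value of its group for 8 of 10 receptor genes, and intact PBS array 3 the lowest for 7. Among the antimiR arrays, array 2 was highest for 6 genes, and the lowest place fell to arrays 1, 2 and 3 for 4, 1 and 5 genes. No mimic array led its group in that way, with arrays 1, 2 and 3 highest for 2, 4 and 4 genes. Among the incised PBS arrays, array 1 was highest for 7 genes and array 2 lowest for 6.

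Over the 12 arrays, the genes nearest to the picked receptors were found by the root mean square difference of centred log2 ratios among 19459 genes with values on all arrays. Cd300lf was nearest to Slfn4 (0.39), Sirpb1b (0.53) and Fcgr1 (0.54), the gene of the high-affinity IgG receptor. Slfn4 averaged 3.70 ± 0.41 in mimic-treated incisions and 2.25 ± 0.69 in PBS-treated incisions, and 3.16 ± 1.07 with antimiR and -0.35 ± 1.08 in intact PBS skin (SD, n = 3 each). Sirpb1b was nearest to Sirpb1a (0.30), B430306N03Rik (0.34) and LOC101056540 (0.42). Clec4d was nearest to Ccr2 (0.19), the receptor that brings monocytes into tissue, then to Lilrb4a (0.31) and Pira11 (0.31). These are descriptions of shared group differences and spread.

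Promoters were read for 8 of the 10 genes from RefSeq (GRCm38.p6), from 250 bases before to 50 after each start. Sirpb1a and Sirpb1b are shown because their windows hold the same elements. With the annotated starts shifted by 93 bases, 198 of 207 bases were identical (95.7%). Both windows hold an interferon-stimulated response element core, written GAAA, any 2 bases, GAAA, and a STAT-type element, TTCNNNGAA, in capitals below, and 90 of the 95 bases shown are the same.
Sirpb1b (chr3:15575115-15575209, minus strand): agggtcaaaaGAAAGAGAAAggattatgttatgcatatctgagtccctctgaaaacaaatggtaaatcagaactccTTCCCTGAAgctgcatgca
Sirpb1a (chr3:15426570-15426664, minus strand): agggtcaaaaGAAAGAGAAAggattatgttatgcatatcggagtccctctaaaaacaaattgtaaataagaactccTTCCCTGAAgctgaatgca
Clec4d also held this interferon-type core, on the opposite strand, and Cd300lf held GAGGAAGT, a PU.1-type motif. Both begin at the annotated start and run downstream of it, in capitals here.
Clec4d (chr6:123262087-123262116, plus strand): ctttggggttgctttctcaaTTTCCTTTTC
Cd300lf (chr11:115133985-115134014, minus strand): tgccagcgggaagtggctaaagGAGGAAGT
Searched on both strands, the interferon-type core was found in 3 of the 8 promoters and in 3.44% of 32851 promoters of the same length, TTCNNNGAA in 3 of 8 (Sirpb1a, Sirpb1b and Trem1) and 8.3%, and GAGGAAGT in 1 of 8 and 3.2%. The C/EBP-type TTGCNNAA was found in 2 of 8 (Clec4e and Cd300a) and 10.8%, and the AP-1 motif TGANTCA in 0 of 8 and 7.81%. Sirpb1a and Sirpb1b both count toward the interferon-type core and the STAT-type element. Their windows are nearly the same sequence, so these matches are not separate. A match is a description of these letters and shows no binding.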

How the data were processed

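Per the file headers, the deposited scanner files hold spot and background intensity in both dyes from Agilent Feature Extraction 11.5.1.1, with a processed intensity and probe positions on mm9. A gene-level log2 table was deposited as well, with no stated method. Its columns correlated at 0.890 to 0.916 with the ratios used here, had medians of -0.0408 to 0.00, and for the 7 single-probe receptor genes equalled skin over reference in the processed signals, so only its rule for several probes is unknown.

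Signals were corrected by normexp (offset 50) and loess within each array in limma 3.58.1 under R 4.3.3. Control and outlier spots were left out and spots averaged. A probe needed Cy5 well above background on at least 3 of 12 arrays, and a gene was read from its brightest kept probe. One fit over the 4 groups gave 2-sided tests, with Benjamini-Hochberg adjustment over all genes and a threshold of 0.05. The number of arrays limits the precision. The p values set a difference of group means against the spread between these samples, which all 4 groups share. On simulated data for 19460 genes, 80 to 83% of changes of 1 on the log2 scale and 93 to 95% of changes of 2 were recovered, with 2 to 9 false calls. The changed genes were drawn at random, with independent noise and no slide effect. These shares need not hold for the receptor genes.

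The receptor genes and the lists were chosen with earlier results of these data known, and 1 gene of the adaptor and kinase list is not reported here. Text names every receptor, up to 4 genes of smallest p from each list, and the 3 nearest genes of each picked receptor. Tyrobp, Adgre1, Csf1r and Ly6g were named for their role, and Cd163, Mrc1, Lyz2, Camp, S100a8 and Stfa2l1 for their values, after their values were seen. Arrays lay on 3 slides, as the names of the scanner files show. Mimic array 1 lay with the incised PBS arrays on slide 1, mimic arrays 2 and 3 with intact PBS arrays 1 and 2 on slide 2, and the antimiR arrays with intact PBS array 3 on slide 3. There were 13 alternatives besides leaving out each array.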

Additional observations from a re-analysis of the deposited data

How the results depend on the processing

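The settings tried were for signals, no background correction, the scanner's processed values, Cy5 alone, scaling between arrays or the deposited table; for probes, no filter, a filter on all 12 arrays or the mean of a gene's probes; and for the fit, only the compared groups, a trend with robust variance, a slide block (fixed or random), a replicate block, and each array left out. Over these, 554 of the receptor genes' tested values kept their direction and side of the threshold, 16 lost a call, 16 gained a call and 14 changed sign. Of the picked genes' untested differences in intact skin and with incision, 147 moved by less than the spread between arrays and 3 by more. With mimic the count of called receptor genes was 0 in the reported fit, 1 with scaling between arrays (Sirpa), 1 with the filter on all 12 arrays (Sirpa) and 6 with only the compared groups, where the share of all genes called was 2.14%, against 0.591% in the reported fit. Leaving out 1 array gave 0 to 2 calls: 2 without intact PBS array 2 or 3 (Clec4e and Sirpa) and 1 without antimiR array 1 (Sirpa), arrays that enter this comparison only through the shared spread. With antimiR the count was 3, and 2 to 4 over the settings and over left-out arrays. With incision it was 6, 0 with slide as a fixed block, 5 or 6 otherwise, and 6 whichever array was left out. The cause of these differences was not tested.

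The values that changed sign all lay near 0 in the reported fit except that of Clec4e. The mimic value of Clec4n was -0.0071 without background correction and -0.0756 with processed signals and with the deposited table, and -0.0132 to 0.0742 over left-out arrays. For Trem1 the mimic value was -0.1701 to 0.0013 over left-out arrays. Its antimiR value was 0.0073 without background correction, 0.0283 with processed signals and with the deposited table, and -0.1019 to 0.0657 over left-out arrays. The antimiR value of Clec4e was -0.11 with Cy5 alone. Untested differences also moved: Sirpb1b was 1.82 with antimiR and 2.09 with incision in the deposited table, and Cd300lf was 2.43 with antimiR by the mean over probes. The calls lost by Clec4n in the deposited table had an adjusted p of 0.372 with antimiR and 0.0548 with incision.

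Replicate numbers are shared by the groups, but the sample titles carry a different number for each sample, and no pairing was used in the reported fit. The deviations of same-numbered arrays correlated at -0.444 to 0.289. With 3 arrays per group these correlations cannot decide whether the numbers pair the samples. A fit with the replicate block called 0, 3 and 6 genes with mimic, antimiR and incision, as without it, and 2, 2 and 0 of 6 arrays correlated best with their own number.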
